A study of Mus musculus with 6 samples.

Results

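The 9 genes described here are Stat2, Stat3, Stat4, Stat5a, Stat5b and Stat6, which encode STAT transcription factors, and Socs1, Socs3 and Cish, which encode feedback inhibitors of the same pathway. They were chosen by gene name, each matching 1 of the 21954 genes of the deposited mRNA table, and all 9 passed the filter on low values. Thymus RNA came from 3 irradiated mice, killed 24 h after 6 Gy of X-rays, and from 3 control mice that received no irradiation. All were wild-type C57BL mice aged 5 weeks, and the study also looked at noncoding RNA and at the PI3K-AKT pathway. Abundance is given as FPKM, the number of sequenced fragments scaled by transcript length and by library depth, so levels of different genes can be compared per length. The labels do not tie each library to an animal, so what the p-values weigh is the spread among 6 libraries.

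Cytokines and several hormones signal through receptors that carry Janus kinases (JAKs). The kinases phosphorylate STAT proteins, which pair, enter the nucleus and switch genes on. Among those genes are SOCS genes and Cish, whose protein products bind the receptors or the kinases and dampen the signal that induced them. In the thymus, IL-7 acting through STAT5 keeps immature T cells alive, and SOCS1 holds cytokine signals down in thymocytes.

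The 8 genes that passed the test at an adjusted p under 0.05 split evenly. Stat2, Stat3, Socs3 and Cish were higher in irradiated thymus, and Stat4, Stat5a, Stat5b and Socs1 were lower. Stat6 did not pass. The 8 of 9 called, 4 higher and 4 lower, stand beside 63.2% called, 42.4% higher and 20.9% lower, of the 14001 genes tested, so being called is common here. These were 5933 higher and 2920 lower genes as deposited, 3501 higher and 4403 lower after quantile normalization, and 4655 higher and 4558 lower after median-ratio scaling. The same 8 had an adjusted p under 0.05 in the authors' deposited table, as did 46.4% of the 19142 genes with a value there. The irradiated and control values did not overlap for any of the 9 genes, which was also true of 70.8% of all genes tested. The median log2 fold change of all genes tested was 0.40 with the FPKM values as deposited, -0.07 after quantile normalization, 0.02 after median-ratio scaling and 0.31 after summed-FPKM scaling, so a gene with a change near 0.40 moved no more than the middle of the transcriptome.

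The make-up of the RNA differed strongly between the groups, and in bulk tissue fewer cells of a type and less RNA per cell cannot be told apart. All 6 double-positive thymocyte markers fell (summed 19.6 to 46.3 FPKM in irradiated libraries, 1380 to 1560 FPKM in controls), as did all 8 pan-T cell markers (202 to 325 FPKM in irradiated libraries, 1090 to 1300 FPKM in controls). All 8 macrophage markers rose (1550 to 1770 FPKM in irradiated libraries, 220 to 320 FPKM in controls), as did all 6 fibroblast markers (330 to 408 FPKM in irradiated libraries, 46.3 to 55.1 FPKM in controls) and all 6 endothelial markers (23.3 to 76.6 FPKM in irradiated libraries, 5.08 to 5.62 FPKM in controls). Of 7 thymic epithelial markers 5 rose (580 to 824 FPKM in irradiated libraries, 225 to 386 FPKM in controls). The irradiated libraries were unequal: the 4 fat cell markers all rose, and summed fat cell markers were 75.7, 1410 and 615 FPKM in irradiated replicates 1, 2 and 3, against 18.1 to 37.8 FPKM in controls, and summed airway and lung markers were 42.3, 2910 and 42.4 FPKM in the same irradiated libraries, against 2.75 to 3.68 FPKM in controls, with 2 of the 3 tested higher. Without irradiated replicate 2, Stat2 was the member that lost its call, and the changes of the others lay between -1.53 for Socs1 and 2.53 for Cish on the log2 scale. The neutrophil markers summed to 31.4, 325 and 123 FPKM in the irradiated libraries and to 41.3 to 109 FPKM in controls, and 1 of 5 rose. No marker list had a gene at 0 in every library, and the part of these cell types in the results below was not tested. Depth, estimated from the step that 1 fragment makes in FPKM, was 24400000 to 25600000 fragments in irradiated libraries and 21900000 to 23200000 fragments in controls.

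Promoter sequences of 4 of the genes are printed because their windows hold elements of the kind that STAT proteins or the interferon-induced STAT2 complex can bind. Each window runs from 250 bases before to 50 bases after the annotated start, 5′ to 3′ on the gene's strand (RefSeq, GRCm38.p6), and capitals mark the motif matches. Positions are counted from 1 at the 5′ end of a window. The Cish window is chr9:107296409-107296708 (plus strand), the Socs1 window chr16:10785487-10785786 (minus strand), the Socs3 window chr11:117969317-117969616 (minus strand) and the Stat2 window chr10:128270248-128270547 (plus strand).
Cish: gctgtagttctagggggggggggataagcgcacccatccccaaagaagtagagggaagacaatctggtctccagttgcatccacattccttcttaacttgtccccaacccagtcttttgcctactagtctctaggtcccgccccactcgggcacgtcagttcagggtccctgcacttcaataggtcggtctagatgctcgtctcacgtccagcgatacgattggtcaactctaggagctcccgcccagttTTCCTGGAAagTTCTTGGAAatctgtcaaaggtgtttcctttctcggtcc
Socs1: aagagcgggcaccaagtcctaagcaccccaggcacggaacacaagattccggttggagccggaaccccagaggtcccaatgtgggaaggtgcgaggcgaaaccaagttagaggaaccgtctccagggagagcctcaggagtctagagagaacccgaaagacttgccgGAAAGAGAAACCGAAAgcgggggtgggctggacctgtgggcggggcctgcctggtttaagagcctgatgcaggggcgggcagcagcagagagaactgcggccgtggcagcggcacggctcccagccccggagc
Socs3: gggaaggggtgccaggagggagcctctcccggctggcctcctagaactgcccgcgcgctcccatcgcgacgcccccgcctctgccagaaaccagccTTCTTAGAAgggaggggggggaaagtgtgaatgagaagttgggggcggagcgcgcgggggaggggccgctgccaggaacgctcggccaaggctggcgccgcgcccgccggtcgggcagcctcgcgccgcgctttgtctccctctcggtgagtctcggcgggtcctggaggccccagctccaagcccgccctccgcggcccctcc
Stat2: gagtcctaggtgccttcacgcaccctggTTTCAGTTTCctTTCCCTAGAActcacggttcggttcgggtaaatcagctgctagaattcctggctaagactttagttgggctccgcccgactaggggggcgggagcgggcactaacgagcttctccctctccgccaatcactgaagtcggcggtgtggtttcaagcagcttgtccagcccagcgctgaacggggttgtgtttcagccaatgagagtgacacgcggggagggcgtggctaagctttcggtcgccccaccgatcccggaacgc

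The 3 motifs below were searched on both strands, the STAT element TTCNNNGAA, its form with a wider spacer TTCNNNNGAA, and the core of the interferon-stimulated response element GAAANNGAAA. The first was in 8.3% of all 32851 RefSeq promoter windows of this length, the second in 6.95% and the third in 3.44%. Cish has 2 matches to TTCNNNGAA, at positions 251 to 259 and 262 to 270 of the window, at and just past the annotated start. Socs3 has 1 such match at positions 97 to 105. Socs1 has 2 matches to GAAANNGAAA that overlap by a few bases, at positions 168 to 177 and 174 to 183. In the Stat2 window GAAANNGAAA is matched on the minus strand at positions 29 to 38 and TTCNNNNGAA at positions 41 to 50. Of the remaining windows of these genes, 1 of 2 for Stat4 matches GAAANNGAAA, and those of Stat3, Stat5a, Stat5b and Stat6 match none of the 3 motifs. A match describes the letters of a window and was not tested for binding, and no match says only that these letters are not in that window.

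**Figure D1:**
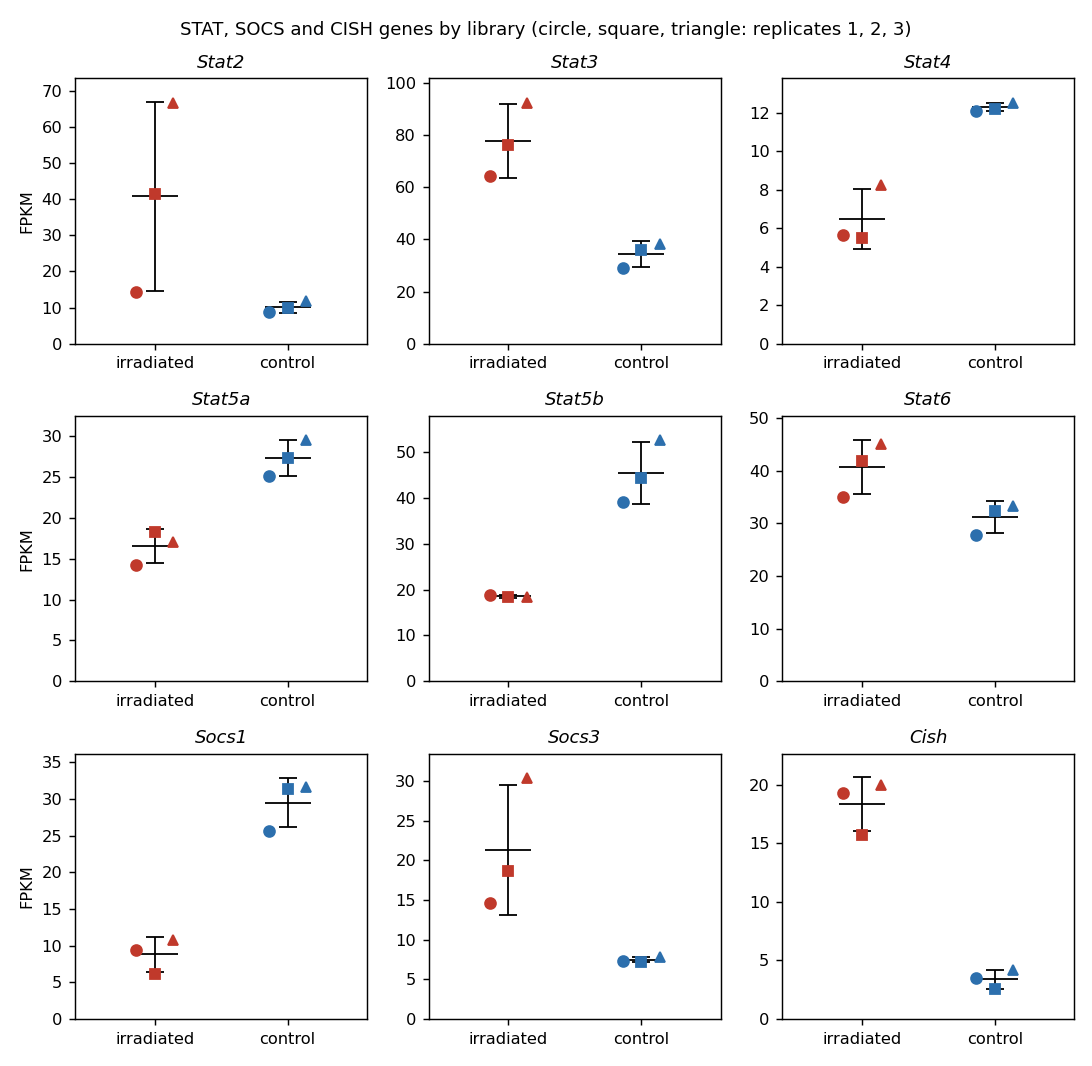
FPKM of each of the 9 genes in every library, irradiated at the left and control at the right of each panel, with circle, square and triangle for replicates 1, 2 and 3, a horizontal bar for the mean and whiskers for the SD (n = 3). No panel has irradiated and control values that overlap, and Stat2 shows the widest irradiated spread, with 14.4, 41.3 and 66.5 FPKM.

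Stat2 encodes the STAT that joins IRF9 in the complex that type I and type III interferons use to switch on interferon-stimulated genes. The gene (ENSMUSG00000040033, chr10:128270576-128292849 in GRCm38 like all gene positions here, plus strand) had 14.4, 41.3 and 66.5 FPKM in irradiated replicates 1, 2 and 3, against 8.65, 9.76 and 11.8 FPKM in control replicates 1, 2 and 3. All irradiated values were above all control values, but irradiated replicate 1 was close to the highest control. Stat2 averaged 40.7 ± 26.0 FPKM in irradiated thymus and 10.1 ± 1.6 FPKM in controls (SD, n = 3 each), a log2 fold change of 1.76 with an SE of 0.51 (95% confidence interval 0.56 to 2.96, adjusted p = 0.0194 in limma). The authors' deposited table gives a log2 fold change of 1.92 for Stat2 with an adjusted p of 0.000285. This was the least secure of the 8 calls: in limma the adjusted p was 0.057 without irradiated replicate 2, 0.0665 without control replicate 1 and 0.058 without control replicate 2. The log2 fold change was 2.38 without irradiated replicate 1 and 1.28 without irradiated replicate 3. Dendritic cell markers summed to 19.4, 38.4 and 57.1 FPKM in irradiated replicates 1, 2 and 3, against 9.80 to 10.5 FPKM in controls, and 2 of 6 rose. Most of the irradiated sums was Itgax, with 10.5, 25.0 and 39.3 FPKM. Zbtb46 also rose, and Flt3, Xcr1, Batf3 and Siglech did not pass. The part of dendritic cells in the spread of Stat2 was not tested. The window printed above holds both an interferon-response core and a STAT element with the wider spacer.

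Stat3, the STAT of IL-6, LIF, oncostatin M and other cytokines that signal through gp130, was the most abundant of the 9 genes in irradiated thymus. Its levels (ENSMUSG00000004040, chr11:100885098-100939540, minus strand) were 64.3, 76.1 and 92.4 FPKM in irradiated libraries, against 28.9, 36.1 and 38.3 FPKM in controls. Every irradiated library was well above every control. Stat3 averaged 77.6 ± 14.1 FPKM in irradiated thymus and 34.4 ± 4.95 FPKM in controls (SD, n = 3 each), 2.25-fold higher after irradiation, and the log2 difference of 1.16 had an SE of 0.19 (adjusted p = 0.00161 in limma).

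The paired genes Stat5a and Stat5b encode closely related proteins that act downstream of IL-7, IL-2, IL-15, growth hormone and prolactin. Stat5b (ENSMUSG00000020919, chr11:100780731-100850724, minus strand) had 18.8, 18.5 and 18.3 FPKM in irradiated libraries, against 39.2, 44.4 and 52.6 FPKM in controls. The irradiated values were nearly identical, while the controls spread over a wider range. Stat5b fell, averaging 18.5 ± 0.239 FPKM in irradiated thymus and 45.4 ± 6.76 FPKM in controls (SD, n = 3 each), 2.45-fold lower after irradiation (log2 fold change -1.28 with an SE of 0.14, adjusted p = 0.000372 in limma).

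Stat5a (ENSMUSG00000004043, chr11:100859351-100885169, plus strand) had 14.2, 18.3 and 17.1 FPKM in irradiated libraries, against 25.1, 27.3 and 29.5 FPKM in controls, again without overlap. Stat5a also fell: its log2 fold change was -0.73 with an SE of 0.15 (adjusted p = 0.00425 in limma). Together the Stat5 genes summed to 32.9, 36.8 and 35.3 FPKM in irradiated libraries and to 64.3, 71.7 and 82.1 FPKM in controls. Within each library the log2 ratio of Stat5a to Stat5b was -0.17 ± 0.20 in irradiated thymus and -0.72 ± 0.10 in controls (SD, n = 3 each, exact two-sided permutation p = 0.1, the smallest that 3 against 3 allows). The transcripts of these genes share 608 windows of 50 bases, which is 16.44% of the Stat5a transcript together with 23 windows shared with Stat3, and 11.77% of the Stat5b transcript. Fragments from those stretches could be assigned to either gene.

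These genes lie side by side. Stat5b, Stat5a and Stat3 occupy 158.8 kb of chromosome 11, with 8626 bases between Stat5b and Stat5a, while Stat5a and Stat3 run towards each other and share 72 bases at their ends. Stat3 rose and its neighbours fell. Strand use in counting is not given in the sources used here, so fragments within the 72 shared bases cannot be told apart, and these make up 0.38% of the 50-base windows of Stat3.

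Stat4 encodes the STAT of IL-12, which drives T helper 1 and natural killer cell responses. This gene (ENSMUSG00000062939, chr1:51987148-52107189, plus strand) had 5.67, 5.49 and 8.26 FPKM in irradiated libraries, against 12.1, 12.2 and 12.5 FPKM in controls. The controls were tightly grouped and all irradiated values were lower, with a log2 fold change of -0.94 and an SE of 0.19 (adjusted p = 0.0041 in limma). The same-strand noncoding gene Gm28177 shares 28.64% of the 50-base windows of the Stat4 transcript and had 1.45, 3.01 and 4.61 FPKM in irradiated libraries, against 0.864, 0.735 and 0.845 FPKM in controls, so its fragments and those of Stat4 may have been divided. Natural killer cell markers summed to 33.1 to 48.2 FPKM in irradiated libraries and 48.5 to 58.7 FPKM in controls, with 1 of the 4 tested higher and 1 lower. The lower sum came from Gzma, which averaged 9.06 FPKM in irradiated libraries and 39.8 FPKM in controls. Every other marker of that list (Ncr1, Klrb1c, Prf1, Eomes and Nkg7) had a higher mean in irradiated libraries. The part of natural killer cells in the level of Stat4 was not tested.

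Stat6, the STAT of IL-4 and IL-13, was the member nearest to the median gene. Values (ENSMUSG00000002147, chr10:127642986-127660957, plus strand) were 35.0, 41.8 and 45.1 FPKM in irradiated libraries, against 27.7, 32.4 and 33.3 FPKM in controls. Although the groups did not overlap, the log2 fold change was 0.38 with an SE of 0.15 (95% confidence interval 0.02 to 0.74, adjusted p = 0.0619 in limma), which is -0.02 relative to the median of all genes. After median-ratio scaling it was -0.01, and without irradiated replicate 1 it was 0.48 and passed the test (adjusted p = 0.0113). Within libraries the log2 ratio of Stat3 to Stat6 was 0.92 ± 0.09 in irradiated thymus and 0.14 ± 0.07 in controls (SD, n = 3 each, exact two-sided permutation p = 0.1, the smallest possible).

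Of the 9 genes, Cish had the highest log2 fold change. It encodes CIS, a STAT5-induced protein that binds receptors of IL-2, IL-15 and related cytokines. The gene (ENSMUSG00000032578, chr9:107296026-107302784, plus strand) had 19.3, 15.7 and 20.0 FPKM in irradiated libraries, against 3.48, 2.52 and 4.17 FPKM in controls. Even the lowest irradiated value was several times the highest control value. Cish averaged 18.3 ± 2.32 FPKM in irradiated thymus and 3.39 ± 0.829 FPKM in controls (SD, n = 3 each), 5.41-fold higher, with a log2 fold change of 2.42 and an SE of 0.22 (95% confidence interval 1.91 to 2.93, adjusted p = 0.000158 in limma). Cish had the smallest adjusted p of the 9 genes, and its change stood at percentile 84.6 of all genes tested. Antisense genes overlap Cish and share 15.78% of its 50-base windows. The antisense gene Gm17041 had 1.02, 0.854 and 0.622 FPKM in irradiated libraries, against 0.0631, 0 and 0.22 FPKM in controls, well below the level of Cish, and without strand information the origin of shared fragments cannot be told apart.

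Socs3 encodes the inhibitor that docks on gp130 and limits IL-6 type signals through STAT3. Its levels (ENSMUSG00000053113, chr11:117966079-117969186, minus strand) were 14.6, 18.7 and 30.4 FPKM in irradiated libraries, against 7.35, 7.19 and 7.83 FPKM in controls. Irradiated replicate 3 was the highest, and the controls lay within a narrow band. Socs3 was 2.85-fold higher in irradiated thymus, with a log2 fold change of 1.43 and an SE of 0.26 (adjusted p = 0.00279 in limma).

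Socs1 encodes an inhibitor of JAK activity downstream of interferon gamma and of common gamma chain cytokines. The gene (ENSMUSG00000038037, chr16:10782240-10785536, minus strand) had 9.43, 6.15 and 10.8 FPKM in irradiated libraries, against 25.6, 31.4 and 31.6 FPKM in controls. All irradiated values were far below the controls. Socs1 averaged 8.8 ± 2.39 FPKM in irradiated thymus and 29.5 ± 3.42 FPKM in controls (SD, n = 3 each), 3.36-fold lower, and its log2 fold change of -1.77 with an SE of 0.23 (95% confidence interval -2.3 to -1.24, adjusted p = 0.000618 in limma) stood at percentile 4.2 of all genes tested.

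**Figure D2:**
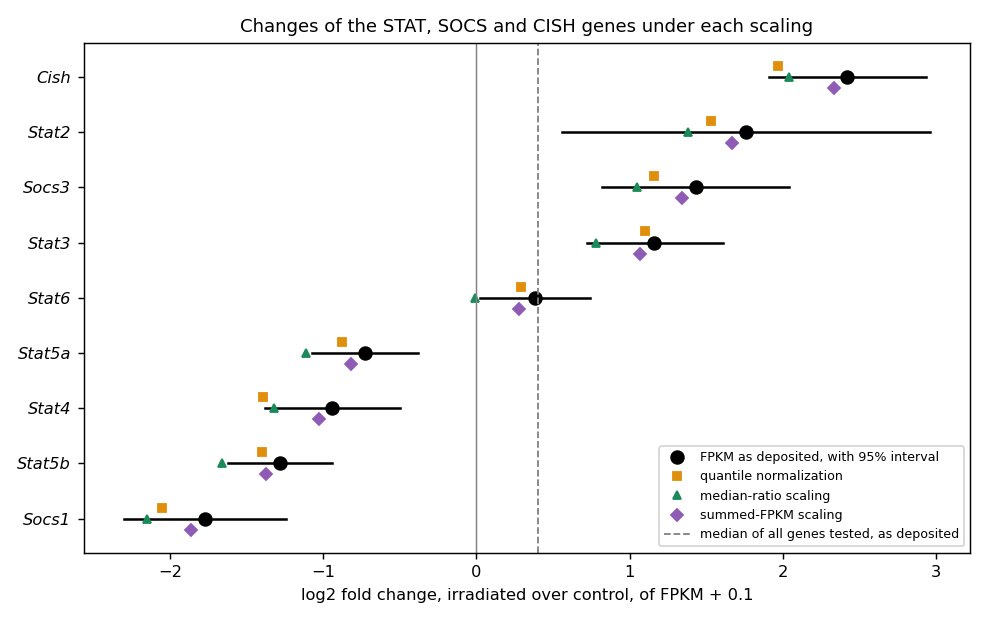
Log2 fold change of the 9 genes, irradiated over control, on the log2(FPKM + 0.1) scale, with black circles and 95% confidence intervals for the values as deposited and coloured symbols for 3 other scalings. The dashed line is the median of all genes tested, 0.40. Cish is at the top with 2.42 and Socs1 at the bottom with -1.77, and the sign changes between scalings for Stat6 alone among these 9.

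The make-up of the 3 inhibitor transcripts differed. Their summed level was 43.3, 40.5 and 61.3 FPKM in irradiated libraries and 36.4, 41.1 and 43.6 FPKM in controls, so the sums overlapped between the groups. Socs1 made up 21.8%, 15.2% and 17.6% of that sum in irradiated libraries, against 70.3%, 76.4% and 72.5% in controls. Cish made up 44.5%, 38.7% and 32.7% in irradiated libraries, against 9.56%, 6.13% and 9.57% in controls. The log2 ratio of Socs3 to Socs1 within a library was 1.23 ± 0.53 in irradiated thymus and -1.97 ± 0.17 in controls (SD, n = 3 each, difference 3.20, exact two-sided permutation p = 0.1, the smallest possible).

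The make-up of the STAT transcripts differed too. The 6 STAT genes summed to 152, 201 and 248 FPKM in irradiated libraries and to 142, 162 and 178 FPKM in controls, with overlap. Stat3 held 42.2%, 37.8% and 37.3% of that sum in irradiated libraries, against 20.4%, 22.3% and 21.5% in controls, while Stat5a and Stat5b together held 21.6%, 18.3% and 14.3% in irradiated libraries, against 45.4%, 44.2% and 46.1% in controls. In irradiated thymus the order of mean levels was Stat3, Stat2, Stat6, Socs3, Stat5b, Cish, Stat5a, Socs1 and Stat4. Neighbours in that order had overlapping values except at 2 steps, between Stat6 and Socs3 and between Stat5a and Socs1. In controls the order was Stat5b, Stat3, Stat6, Socs1, Stat5a, Stat4, Stat2, Socs3 and Cish, and there Stat3, Stat6, Socs1 and Stat5a overlapped from neighbour to neighbour while the other steps did not.

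**Figure D3:**
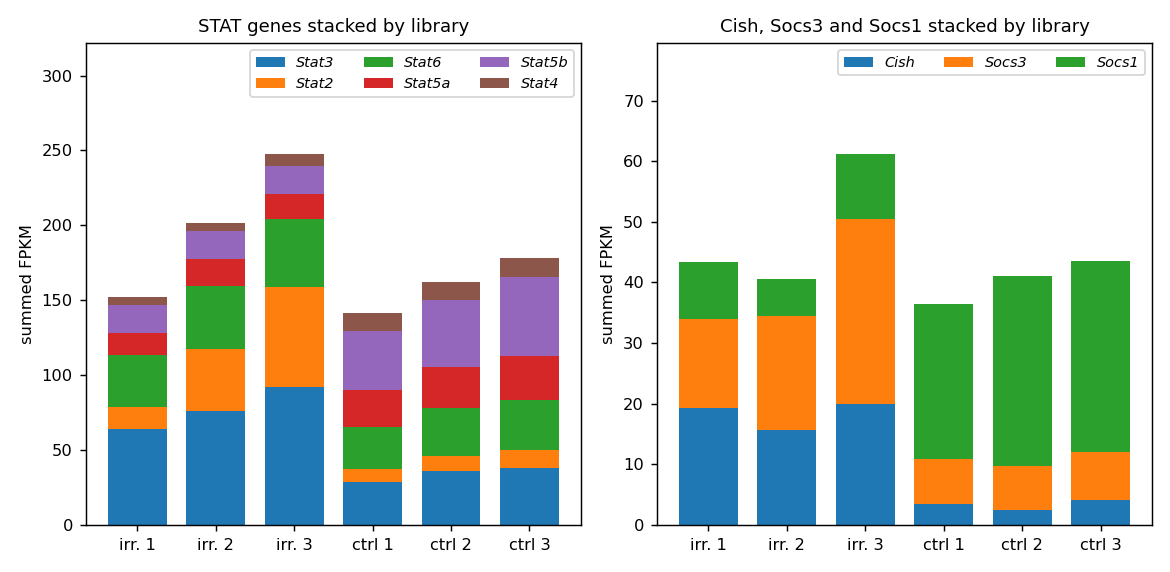
Stacked FPKM of the 6 STAT genes at the left and of Cish, Socs3 and Socs1 at the right, with a bar for each library, irradiated (irr.) before control (ctrl). The share of Stat5a and Stat5b is 14.3% to 21.6% in irradiated bars and 44.2% to 46.1% in control bars, and that of Socs1 is 15.2% to 21.8% in irradiated bars and 70.3% to 76.4% in control bars.

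Measured against T cell markers in the same library, every member had higher values in irradiated libraries than in controls. The mean log2 level of the 8 pan-T cell markers was 5.24, 4.52 and 4.91 in irradiated libraries and 6.84, 7.03 and 7.15 in controls, a difference of -2.11. Any gene with a log2 fold change above -2.11 therefore has a higher mean ratio in irradiated libraries. Socs1, the member that fell most, stood at percentile 4.2 of all genes tested, so most genes come out higher by this measure. The log2 ratio of Socs1 to that mean was -1.78 ± 0.28 in irradiated libraries and -2.12 ± 0.06 in controls (SD, n = 3 each), a difference of 0.35. For Stat5b the difference was 0.84, for Stat4 1.18, for Stat5a 1.39 and for Stat6 2.49, and for Stat3, Socs3, Stat2 and Cish it was 3.28, 3.54, 3.87 and 4.53. The Cish level relative to the mean of Stat5a and Stat5b was 0.06 ± 0.26 in irradiated libraries and -3.36 ± 0.33 in controls (log2, SD, n = 3 each). For all 13 such ratios the groups did not overlap and the exact two-sided permutation p was 0.1, the smallest possible, and 0.1 after adjustment over the 13. The share of all genes whose ratios to the T cell markers do not overlap was not computed.

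Upstream of the STATs are 4 JAK kinases, of which 2 rose and none fell, with a median log2 fold change of 0.50 beside 0.40 for all genes. Counts of this list and of those below stand beside 42.4% higher and 20.9% lower of all genes tested. Jak3, the kinase of the common gamma chain, had 17.8, 19.2 and 20.7 FPKM in irradiated libraries, against 6.08, 7.4 and 8.25 FPKM in controls (log2 fold change 1.41, limma adjusted p = 0.000363). Tyk2, which serves interferon and IL-12 receptors, rose with a log2 fold change of 0.74 (adjusted p = 0.007). Jak2 was at 0.26 (adjusted p = 0.147) and Jak1, the most abundant, at -0.07 (adjusted p = 0.705). After median-ratio scaling Jak2 was at -0.13 and Jak1 at -0.46 (adjusted p = 0.0373), so Jak1 then passed as lower, Tyk2 at 0.36 did not pass (adjusted p = 0.0575), and Jak3 was the 1 kinase that passed as higher.

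Of the 4 other SOCS genes 2 rose and 1 fell. Socs2, an inhibitor of growth hormone signals and itself a STAT5 target, had 9.9, 10.9 and 12.8 FPKM in irradiated libraries, against 3.4, 3.39 and 3.12 FPKM in controls (log2 fold change 1.73, limma adjusted p = 0.000183). Socs5 rose with a log2 fold change of 0.77 (adjusted p = 0.00767), a call lost after quantile normalization (0.31, adjusted p = 0.177) and median-ratio scaling (0.39, adjusted p = 0.0696), and Socs4 fell with -0.94 (adjusted p = 0.00134). Socs7 was at 0.31 (adjusted p = 0.233). Among 9 phosphatases, PIAS proteins and adaptors that limit the pathway, 4 rose, 2 fell and 3 did not pass, with a median log2 fold change of 0.21. After median-ratio scaling 3 of them were higher and 4 lower, with Pias1 and Pias4 added and Ptpn11 (0.22, adjusted p = 0.229) lost. Those that fell were Ptprc, which encodes the leukocyte phosphatase CD45 (149, 107 and 126 FPKM in irradiated libraries, 417, 405 and 425 FPKM in controls), and the ubiquitin ligase gene Cbl, at -1.88. Pias3, an inhibitor of STAT3, rose with a log2 fold change of 1.81 (adjusted p = 0.000581), and Sh2b3, the gene of the adaptor LNK, with 1.02 (adjusted p = 0.00105).

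Receptors that feed STAT3 were mostly higher. Of 7 receptor genes of the gp130 group 6 rose and none fell, with a median log2 fold change of 1.90. Osmr, the oncostatin M receptor, had 49.1, 40.5 and 51.0 FPKM in irradiated libraries, against 4.43, 3.32 and 3.12 FPKM in controls (log2 fold change 3.67, limma adjusted p = 5.3e-05). Lifr, the LIF receptor, had 157, 115 and 126 FPKM in irradiated libraries, against 24.2, 18.0 and 19.8 FPKM in controls, a log2 fold change of 2.67. The IL-6 receptor gene Il6ra was at 1.90 (adjusted p = 0.000627) and the IL-11 receptor gene Il11ra1 at 1.87 (adjusted p = 7.24e-05). The shared subunit gene Il6st, which encodes gp130, was at 0.74 (adjusted p = 0.00509), a call lost after median-ratio scaling (0.35, adjusted p = 0.103), which left 5 higher. Cntfr passed the filter on low values through the irradiated libraries alone. Il27ra did not pass, at -0.25, and was lower without irradiated replicate 1 (-0.55, adjusted p = 0.0306). Fibroblast, endothelial and macrophage markers rose in the same libraries, with the sums given above, and their part in these receptor levels was not tested.

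The common gamma chain list of 10 genes also holds Il13ra1 and Crlf2, which belong to receptors for IL-13 and TSLP. Of the 10, 4 rose, 1 fell and 5 did not pass, beside 42.4% higher and 20.9% lower of all genes tested. The median log2 fold change of 0.35 was close to that of all genes. Il13ra1, a subunit of receptors for IL-13, rose most (30.4, 28.6 and 38.2 FPKM in irradiated libraries, 5.34, 4.76 and 4.28 FPKM in controls), followed by Il15ra at 1.63 and Il2rb at 1.43, and Il21r fell, at -0.98 (adjusted p = 0.007). Under each of the 3 other scalings 3 were higher and 2 lower: Crlf2, the chain of the TSLP receptor and 1 of those that rose (0.60, adjusted p = 0.0385), then did not pass (adjusted p = 0.114 to 0.552), and Il9r passed as lower. The call of Crlf2 was also lost without irradiated replicate 1 or 3 or control replicate 1 or 2. Lower genes numbered 2 without irradiated replicate 1, where Il7r gained a call, and 2 without irradiated replicate 3, where Il9r did. The shared chain Il2rg was at -0.22 (adjusted p = 0.576). Il7r, the IL-7 receptor chain whose signals STAT5 carries, had 46.5, 11.3 and 12.1 FPKM in irradiated libraries, against 13.8, 15.8 and 21.1 FPKM in controls. Irradiated replicate 1 was above all controls and the other irradiated libraries were below them, and the gene did not pass (log2 fold change 0.16, adjusted p = 0.802). Without irradiated replicate 1 Il7r turned its sign and passed as lower (-0.5, limma adjusted p = 0.0457).

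Of 11 receptor genes of interferons, IL-10 and IL-12, 10 were abundant enough to test, and 6 of these rose and 2 fell. Il10rb was at 2.04, Il10ra at 2.02 and Ifnlr1, a receptor of type III interferons, at 2.06, while Ifngr1, the ligand-binding receptor of interferon gamma, fell with a log2 fold change of -1.17 (limma adjusted p = 0.00132). Il12rb1, the receptor chain upstream of STAT4, fell as well, at -1.30 (adjusted p = 0.0136), and Il12rb2 was at -0.23 (adjusted p = 0.313), passing as lower after quantile normalization (-1.2) and median-ratio scaling (-0.61). Leaving out control replicate 3 ended the call of Il12rb1 (-1.11, adjusted p = 0.0588). Quantile normalization gave 4 higher and 3 lower: Ifnlr1, which passed the filter through the irradiated libraries alone, lost its call (0.49, adjusted p = 0.21), and Il23r, at 1.02 (adjusted p = 0.0282) as deposited, turned its sign (-0.5, adjusted p = 0.186). Il23r also missed the threshold after median-ratio scaling (0.67, adjusted p = 0.102), where 5 were higher and 3 lower. Ifnar1 was at 0.08 and did not pass, whereas its partner Ifnar2 rose, at 1.22. Of 10 receptor genes of hormones and colony-stimulating factors, 3 were below the filter on low values and 7 rose, of which Epor and Lepr passed the filter through the irradiated libraries alone. After quantile normalization 5 rose, without Il3ra and Epor. Csf2ra was at 2.18, Csf2rb at 2.53, Ghr at 3.13, Lepr at 3.36 and Csf3r at 4.36, and Csf3r ranged from 4.29 to 31.4 FPKM among the irradiated libraries, against 0.478 to 0.834 FPKM in controls.

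Of 26 cytokine ligand genes 11 were below the filter on low values, and Ifnb1 was listed at 0 in every library. Of the 15 tested 6 rose, none fell and 9 did not pass. The control mean was itself below the filter for 6 of the 15, and 2 of these, Lif and Tslp, are among those that rose. The call of Tslp (1.33, limma adjusted p = 0.025) was lost after quantile normalization (-0.37, adjusted p = 0.447) and median-ratio scaling (1.02, adjusted p = 0.062). It was also lost without any 1 control and with the replicate block. Ebi3, which rose as well (1.93, adjusted p = 0.00885), lost its call after quantile normalization (0.68, adjusted p = 0.244). Il7, the stromal cytokine that sustains thymocytes through STAT5, had 29.8, 11.2 and 11.0 FPKM in irradiated libraries, against 5.95, 4.69 and 3.49 FPKM in controls (log2 fold change 1.72, limma adjusted p = 0.0086). Il15 was at 1.51 (adjusted p = 0.000599) and the gp130 ligand gene Ctf1 at 2.54 (adjusted p = 0.00204). Lif, another gp130 ligand, had 1.16, 1.75 and 2.41 FPKM in irradiated libraries, against 0.319, 0.0734 and 0.158 FPKM in controls, and its log2 fold change of 2.76 (adjusted p = 0.00213) was 1.18 and did not pass after quantile normalization (adjusted p = 0.064). Il6 had 0.104, 0.308 and 2.55 FPKM in irradiated libraries, against 0.0921, 0.279 and 0.0195 FPKM in controls, so irradiated replicate 3 stood alone and the gene did not pass (adjusted p = 0.21), though it did without irradiated replicate 1 (2.34, adjusted p = 0.0464). After quantile normalization 3 ligand genes were higher and 2 lower. Without irradiated replicate 1, 10 were higher, and 10 also without the filter.

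Known target genes were read beside each STAT. Of 15 interferon-stimulated genes downstream of STAT2, 13 rose and 2 did not pass, with a median log2 fold change of 2.56. Oasl2 had 50.9, 151 and 136 FPKM in irradiated libraries, against 9.33, 8.7 and 12.5 FPKM in controls, and Irf9, the STAT2 partner, had 21, 30.5 and 34.0 FPKM in irradiated libraries, against 13.2, 11.6 and 12.9 FPKM in controls. Ifi44 was at 2.84 and the antiviral enzyme gene Oas1a at 3.52 (adjusted p = 0.00225 and 0.00232). Ifit2 (1.62, limma adjusted p = 0.0711) and Oasl1 (2.15, adjusted p = 0.0513) did not pass. Relative to the control mean, the median of these genes was 1.06, 3.12 and 3.77 log2 units in irradiated replicates 1, 2 and 3, and Stat2 was at 0.53, 2.04 and 2.72. Both were lowest in irradiated replicate 1, but so were the STAT3 targets given below and the summed endothelial and fat cell markers. Summed fibroblast markers were lowest in irradiated replicate 3. The number of interferon-stimulated genes that rose was 10 without irradiated replicate 2 or any 1 control. It was 11 without irradiated replicate 3 and 15 without irradiated replicate 1. It was 11 under either quantile normalization or median-ratio scaling, where Isg15 and Mx2 did not pass.

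Of 14 known STAT3 targets 13 rose, and Pim1 did not pass. Itih4, 1 of the 13, passed the filter on low values through the irradiated libraries alone. The median log2 fold change of the list was 4.39. Serpina3n, an acute-phase protease inhibitor gene, had 120, 108 and 160 FPKM in irradiated libraries, against 0.77, 1.12 and 1.01 FPKM in controls (log2 fold change 6.91). Lcn2, which encodes an iron-binding acute-phase protein, had 39.6, 108 and 220 FPKM in irradiated libraries, against 1.57, 2.5 and 2.2 FPKM in controls. Steap4 was at 4.00, and Osmr, given above, is also on this list. Several of these genes are also made by neutrophils, fat cells or macrophages, whose marker levels in the same libraries are given above, and their part in these levels was not tested. The median of the list was 2.53, 4.91 and 5.22 log2 units above the control mean in irradiated replicates 1, 2 and 3, whereas Stat3 itself was at 0.91, 1.15 and 1.43.

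**Figure D4:**
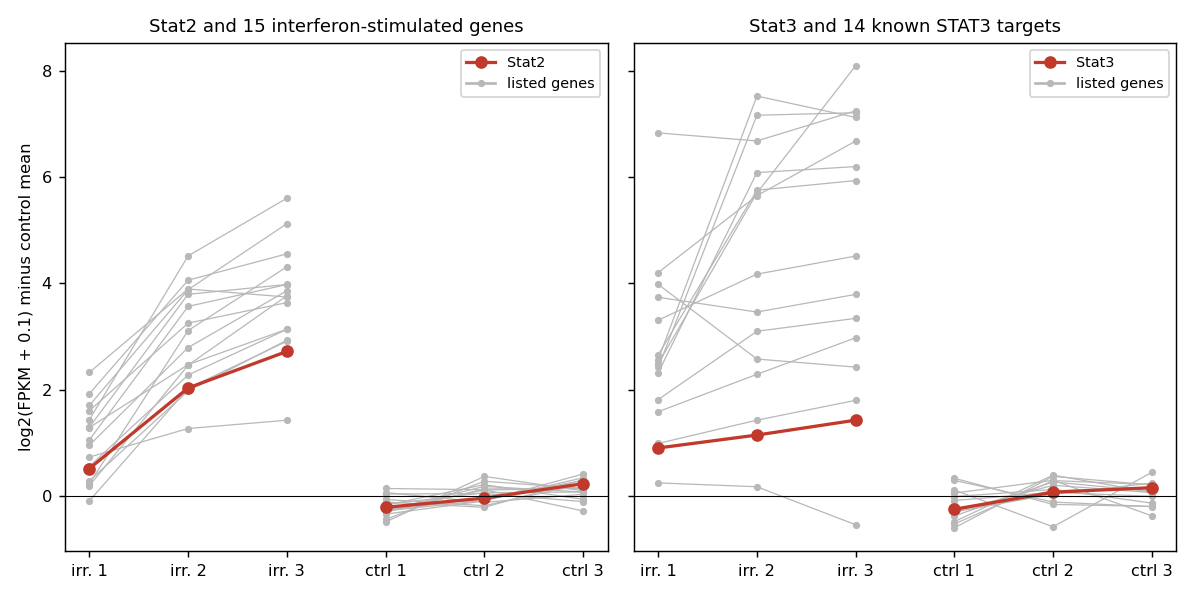
Log2(FPKM + 0.1) minus the control mean in each library, irradiated (irr.) before control (ctrl), for Stat2 with 15 interferon-stimulated genes at the left and Stat3 with 14 known STAT3 targets at the right. Lines join values of the same gene within a group. Stat2 is at 0.53, 2.04 and 2.72 in the irradiated libraries and Stat3 at 0.91, 1.15 and 1.43, and most listed genes lie above them.

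Among the targets of the STATs that fell, or did not pass, more rose than fell in each list, as was also so among all genes tested. Of 8 known STAT5 targets 4 rose (Socs2, Igf1, Ccnd2 and Foxp3), 1 fell and 3 did not pass, with a median log2 fold change of 0.84. Of all genes tested 42.4% were higher and 20.9% lower. Bcl2l1, the gene of the survival protein BCL-XL, had 25.6, 28.2 and 44.2 FPKM in irradiated libraries, against 48.4, 57.2 and 64.3 FPKM in controls (log2 fold change -0.82, limma adjusted p = 0.0175), a call that was lost without irradiated replicate 2, control replicate 2 or control replicate 3. Bcl2, another survival gene, was at 0.62 (adjusted p = 0.21), Il2ra at 0.38 (adjusted p = 0.285) and Pim1 at -0.03 (adjusted p = 0.908). Foxp3, which passed the filter through the irradiated libraries alone, lost its call and turned its sign after quantile normalization (-0.22, adjusted p = 0.609).

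Of 12 known STAT6 targets 6 rose, 1 fell and 5 did not pass, beside 42.4% higher and 20.9% lower of all genes tested. Their median log2 fold change was 2.0, beside 0.40 for all genes. Arg1, 1 of those that rose, and Ccl24, which did not pass, entered the test through the irradiated libraries alone. Tgm2 was at 4.88, Cdh1 at 3.52 and Mrc1, a macrophage mannose receptor gene, at 1.93, while Gata3, a transcription factor that developing T cells need, fell with a log2 fold change of -1.65 (adjusted p = 0.000473). After quantile normalization or median-ratio scaling 4 were higher and 2 lower, with Retnla and Ccl17 lost and Fcer2a added. The number higher was 4 without the filter, without irradiated replicate 3 or without any 1 control, and 8 without irradiated replicate 1. The median log2 fold change of the STAT4 targets tested was 1.68. Of 7 known STAT4 targets 6 were tested and 5 of those rose, among them Tbx21 at 2.08, Il18r1 at 1.51, Furin at 1.63 and Hlx at 2.71, although Stat4 itself fell. After quantile normalization 3 of these were higher and 1 lower, and Tbx21 did not pass (0.72, adjusted p = 0.073).

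The deposited table of noncoding RNA also holds noncoding transcripts of these genes, matched by gene identifier. There were 28, of which 20 are annotated as retained introns and 8 as processed transcripts, and none belongs to Socs1. They share exons with the mRNAs, so how fragments were divided between isoforms bears on every value. Of the 27 tested, 4 rose and 4 fell, beside 24.7% called, 9.15% higher and 15.6% lower, of the 30613 transcripts tested in that table, whose median log2 fold change was -0.34. The groups did not overlap for 14 of the 27, beside 45.7% of all transcripts tested. The direction was that of the gene for 23 of the 27.

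Cish-202 (ENSMUST00000165664), a processed transcript, had 12.7, 6.33 and 8.58 FPKM in irradiated libraries, against 1.88, 0.948 and 1.1 FPKM in controls. All irradiated values were above all controls (log2 fold change 2.72 with an SE of 0.35, adjusted p = 0.00403 in limma), and the authors' deposited table gives Cish-202 a log2 fold change of 2.86 with an adjusted p of 0.0028, the only one of the 28 under 0.05 there, beside 7.17% of the 41029 transcripts with a value. Stat2-203 rose (1.90, adjusted p = 0.012), as did Stat2-206 (1.43, adjusted p = 0.0413) and Stat3-214 (1.79, adjusted p = 0.0148). Each of these stayed under 2.5 FPKM in every library, and the Stat2-206 call was lost whichever library was left out.

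The noncoding transcripts that fell were Stat5b-203 (-2.20, adjusted p = 0.0175), Stat5a-205 (-1.62, adjusted p = 0.012), Stat5a-207 (-1.45, adjusted p = 0.011) and Stat4-203 (-1.45, adjusted p = 0.0177). Stat5a-207 had 2.11, 1.34 and 1.74 FPKM in irradiated libraries, against 3.93, 5.45 and 5.2 FPKM in controls. Stat3 has 10 noncoding transcripts, whose log2 fold changes ran from 0.19 to 1.79 with 1 past the test. The 3 of Stat6 lay between -0.44 and -0.02, and Socs3-202 and Socs3-203 were at 0.70 and -0.41, none of them past the test. Cish-205 was listed at 0 in all 6 libraries. The calls of Stat4-203, Stat5a-205 and Stat5b-203 were lost under either of these 2 scalings, quantile normalization or median ratios, that of Stat4-203 also without irradiated replicate 2 or 3 or control replicate 1 or 3, and that of Stat5b-203 without irradiated replicate 3 or control replicate 2 or 3. Leaving out control replicate 2 ended the calls of Stat5a-207 and Stat3-214, and leaving out control replicate 1 ended that of Stat3-214.

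**Figure D5:**
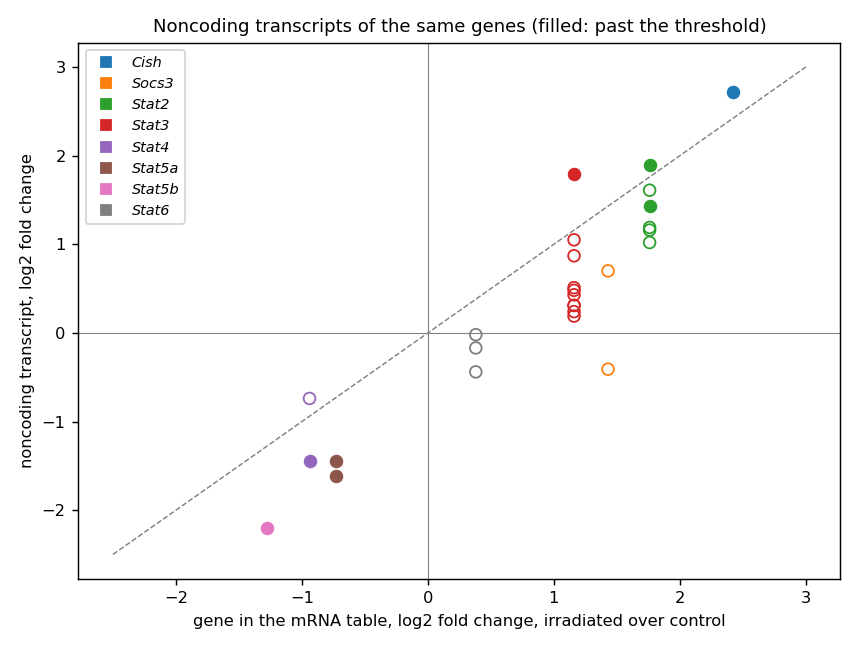
Log2 fold change of 27 noncoding transcripts (vertical) against that of their gene in the mRNA table (horizontal), both irradiated over control, coloured by gene and filled where the transcript passed the test. The dashed line marks equal change. Cish-202 is at the top right with 2.72 and Stat5b-203 at the bottom left with -2.20.

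The genes closest to a member in pattern over the 6 libraries were found by the root mean square difference of log2 values centred on each gene. For Cish they were Sema4c (0.0745 log2 units), Myo7a (0.0745) and Jdp2 (0.106). Sema4c had 18.9, 13.7 and 19.3 FPKM in irradiated libraries, against 3.44, 2.33 and 3.61 FPKM in controls, levels much like those of Cish. For Stat3 they were Chpf2 (0.0567), Tmem219 (0.0631) and Rab7 (0.067). For Stat5b they were Dgkd (0.0763), Map4k1 (0.0866) and Kremen1 (0.0898), and for Socs1 Ift80 (0.125), Srsf3 (0.131) and Tnfaip8 (0.134). The median difference over all genes was 1.11 for Cish and 0.73 for Stat3.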

How the data were processed

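Per the labels' protocols, TRIzol was used to extract thymus RNA, and a NEBNext kit to turn its polyadenylated fraction into 3 irradiated and 3 control libraries. The authors deposited FPKM values per library in an mRNA table (59179 transcript lines of 21954 genes, with the same values on every line of a gene) and in a table of 53001 noncoding transcripts, from which 62 lines of overflow text were dropped. The log2 fold changes and adjusted p-values in the authors' deposited tables come from DESeq2 1.10.1 according to the submitters' processing notes. Which aligner and counter were used, and whether by strand, is not given in the sources used here. Coordinates are those of the files, whose mRNA transcripts have the same start and end in GENCODE M21 (GRCm38) in 99.79% of matches.

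Genes averaging at least 0.5 FPKM (transcripts of the noncoding table, 0.1 FPKM) were tested as log2(FPKM + 0.1) with limma 3.58.1 in R 4.3.3, with group as the only term, an abundance trend and Benjamini-Hochberg adjustment over all features of a table, at a threshold of 0.05. Fold changes on this scale understate the change of low genes. The script was tested on simulated data. Ratios within a library were put to an exact permutation test (two-sided). All 9 genes are named, with all JAK and other SOCS genes, the 4 genes of smallest adjusted p in the other lists and those needed to account for a list (Il6st, Il12rb1, Ifnar2, Csf3r, Bcl2l1 and the genes named for a call that changed or for the filter were chosen after their values were seen), every tested noncoding transcript in counts or by name, and the 3 genes nearest in pattern for the 2 members of smallest adjusted p in each direction. Members and lists were chosen with earlier results of these data known. Depth is known only by the estimate from FPKM steps, and 1 fragment in a transcript of 1 kb was worth 0.0391 to 0.0456 FPKM. Other pseudocounts, filters and scalings, a replicate block and leaving out each library were tried.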

Additional observations from a re-analysis of the deposited data

How the results depend on the processing

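The directions of Stat2, Stat3, Stat4, Stat5a, Stat5b, Socs1, Socs3 and Cish held under all 14 alternatives run, and 7 of these kept their side of the threshold under each, the exception being Stat2. Log2 fold changes ranged from 1.28 to 2.38 for Stat2, 0.78 to 1.29 for Stat3, 1.05 to 1.66 for Socs3, 1.97 to 2.58 for Cish, -1.39 to -0.83 for Stat4, -1.11 to -0.62 for Stat5a, -1.66 to -1.17 for Stat5b and -2.15 to -1.53 for Socs1. Leaving out a library gave 3 to 5 members higher. The change of Stat6 was -0.01 after median-ratio scaling, and the cause was not tested. A tally covers the 9 members, their called transcripts, the ratios, and the counts and medians of the lists. In it 815 values kept direction and side of the threshold, stayed within the spread or were counts that changed little, 41 moved, 27 lost and 1 gained a call. Counts among the 815 could still differ by a few genes: the STAT6 targets that rose, 6 as deposited and 4 without the filter, are among them. Of its tested values 1, that of Stat6, turned its sign. Single list genes are outside the tally. Among them Il23r, Foxp3, Tslp and Ccl17 turned their sign after quantile normalization. Il13 (0.49 to -0.92) and Il12a (0.44 to -1.19) did so too and then passed as lower. List medians relative to that of all genes, which carry no test, crossed 0 in 7 cases of the tally. The ligand list was at 0.71 as deposited and -0.31 after quantile normalization. The list of phosphatases, PIAS proteins and adaptors was at -0.19 as deposited, 0.20 after quantile normalization and 0.03 without irradiated replicate 1. The common gamma chain list was at -0.05 as deposited, 0.22 after quantile normalization, 0.06 with at least 1 FPKM in 3 libraries, 0.22 without irradiated replicate 2 and 0.16 without irradiated replicate 3.

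Of all mRNA genes, 5933 were higher and 2920 lower as deposited, against 3501 higher and 4403 lower after quantile normalization, and 4655 higher and 4558 lower after median-ratio scaling, which centre the median near 0 by construction. Of the noncoding transcripts of these genes, 4 rose and 4 fell as deposited. After quantile normalization 6 rose and 1 fell, and after median-ratio scaling 9 rose and 1 fell. Leaving out a library gave 2 to 6 higher (2 without control replicate 1 or 2) and 2 to 4 lower (2 without irradiated replicate 3, control replicate 2 or control replicate 3).

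Same-numbered libraries did not deviate together (Pearson r across genes 0.06, -0.043 and 0.052), so the numbers were not taken as pairs. With the replicate block 4 members were higher and 4 lower, and 5693 and 2662 genes of all. Depth limits the lowest genes: Il6, Lif and most noncoding transcripts rest on few fragments.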
